A study of Phaseolus vulgaris with 6 samples.

Results

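The auxin genes of common bean (Phaseolus vulgaris) were followed in the mutant nts and in the wild type A18 by RNA sequencing of apical stems, with 3 samples of each genotype. They were taken as all gene models whose description holds the words auxin, AUX/IAA, indole-3-acetic, indoleacetic, GH3, YUCCA, tryptophan aminotransferase or PIN-FORMED, leaving out the SAUR family of small auxin-responsive transcripts. This gave 121 of the 27012 genes in the deposited table. Both genotypes were raised from seed at 25 °C with 14 h of light and 10 h of darkness and were collected when flowering began, after the stem tips of nts had visibly diverged from those of A18. The labels name no mutated gene, so no transcript could serve as a check of the genotype labels, and they do not say how many plants entered a sample or whether samples were pooled. The p-values therefore measure only the spread between these samples.

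Auxin (indole-3-acetic acid) is made in young shoot tissue from tryptophan, first by tryptophan aminotransferases and then by YUCCA flavin monooxygenases. It moves from cell to cell through AUX1/LAX influx and PIN-FORMED efflux carriers, which give the flow down the stem its direction. In the nucleus, auxin joins F-box receptors to AUX/IAA repressors, the repressors are degraded, and the auxin response factors they held are freed to act on their targets. Many AUX/IAA and GH3 genes are themselves early targets of auxin, and GH3 enzymes join the hormone to amino acids, which takes it out of the active pool.

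By description the 121 genes comprised 24 AUX/IAA genes, 28 auxin response factors, 2 F-box receptors, 13 GH3 genes, 4 synthesis genes, 29 transport genes and 21 others. The AUX/IAA gene indole-3-acetic acid 7, which carries the KEGG orthology number K14484, was added to its group by name. The other 23 all carried the same number. All 28 response factors carried K14486 and both receptors K14485. Among the 13 GH3 genes, 11 carried K14487 and 2 carried K14506, the number of the enzyme that conjugates jasmonate. Of the 26 auxin efflux carrier family genes, 13 carried K00384 and 3 carried K01807, numbers of metabolic enzymes rather than of carriers, and 10 carried none. Of all members 95 had a GO term with the word auxin. In all, 15 had 0 counts in every library, 6 more were counted but too low to test, and 100 were tested.

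Library totals lay between 40728394 and 62695701 counts. On the first principal component of all tested genes (54.8% of the variance), nts replicates 1 and 2 stood at 122.4 and 101.6 and A18 replicates 1 and 3 at -112 and -116.3, with nts replicate 3 at 40.3 and A18 replicate 2 at -36.1 between them. Of the 100 tested auxin genes, 41 were nearer in nts replicate 3 to the mean of A18 than to that of the other nts libraries, and 51 were nearer in A18 replicate 2 to the mean of nts, against 54.6% and 52.9% of all tested genes. Markers of other tissues also differed between the genotypes, most of all genes of secondary walls in xylem and fibres. At the study's thresholds (a log2 change of 2 or -2 with an unadjusted p of at most 0.05) 3.37% of all tested genes were lower and 2.06% higher. Of 44 tested secondary wall genes 27 were lower and 0 higher. Their summed level over 46 genes was 1301, 660.5 and 2869 FPKM (fragments scaled by gene length and library size) in nts replicates 1, 2 and 3, against 10496, 6808 and 9495 FPKM in A18, with 36 to 45 of the 46 counted in each library. In whole stem tips, fewer cells of a type and less RNA per cell cannot be told apart, and the part of such tissue differences in the values that follow was not tested. Shoot meristem genes were present in all libraries, with 473.9 to 908.2 FPKM in nts and 684.1 to 830.6 FPKM in A18 summed over 29 genes. Of 19 tested meristem genes 6 were lower and 0 higher at an unadjusted p of at most 0.05 in edgeR, 2 of them past the study's thresholds. Of 72 tested photosynthetic genes 16 were higher and 0 lower at that level, with sums of 29288 to 32147 FPKM in nts and 16701 to 30936 FPKM in A18. Of 26 tested genes of dividing cells 5 were higher and 0 lower, with sums of 417.0 to 900.6 FPKM in nts and 328.0 to 616.3 FPKM in A18. Of 19 tested phloem genes 4 were lower and 0 higher, and of 26 tested flower organ genes 5 were lower and 2 higher. Among all tested genes 8.39% were higher and 9.58% lower at that level.

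Of the genes past the thresholds that the study set, those higher in nts were 2 AUX/IAA repressors, 1 response factor, 2 GH3 enzymes, 2 synthesis enzymes and 1 carrier, and those lower were 1 carrier and 2 other genes. No auxin gene passed an adjusted p of 0.05 over all tested genes in edgeR (lowest 0.0644), a level that 0.0947% of all tested genes passed. At an unadjusted p of at most 0.05, 18 of the 100 were higher in nts and 15 lower, where 8.39% and 9.58% of all tested genes were. The study itself labelled genes as different when log2 reached 2 or -2 together with an unadjusted p of at most 0.05, called the study's thresholds here. On the higher side 8 auxin genes passed them, where 2.06% of all tested genes did, and on the lower side 3 passed, a share near the 3.37% of all tested genes. In 19 of the tested auxin genes every nts library lay above every A18 library, and in 16 every nts library lay below, where 10.0% and 14.3% of all tested genes did, 24.3% in either direction. The median log2 change of the 100 genes was 0.24, against 0.00 over all tested genes, with 60 above 0.

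**Figure D1:**
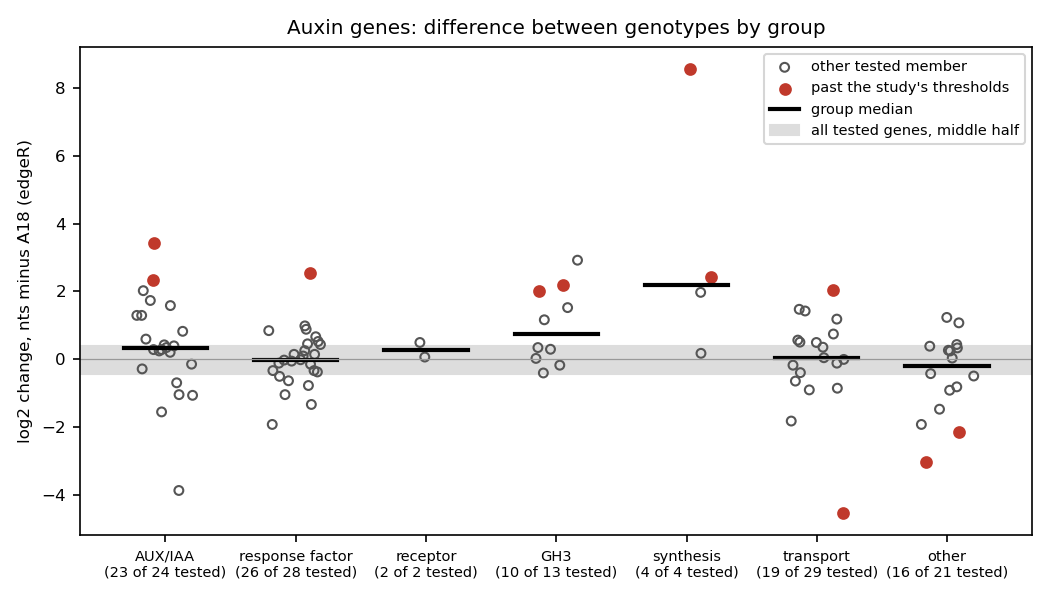
Log2 change (nts minus A18, edgeR) of each tested auxin gene by group. Filled points passed the study's thresholds, black bars are group medians and the grey band holds the middle of all tested genes, from the lower to the upper quartile. The 4 synthesis genes all lie above 0 (median 2.19) and the response factors centre on it (median -0.03).

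The summed level of the AUX/IAA repressors was higher in every nts library than in any A18 library: 5920, 4802 and 6698 FPKM in nts replicates 1, 2 and 3, against 2523, 4154 and 2951 FPKM in A18. This separation rested on the abundant Phvul.001G156600 and Phvul.007G176600 together, and the summed level of the other members overlapped between the genotypes. Of 23 tested members 16 had a log2 change above 0, with a median of 0.34. The study's thresholds were passed by 2 members, both higher, where 2.06% of all tested genes were higher and 3.37% lower. At an unadjusted p of at most 0.05, 6 were higher and 2 lower, where 8.39% and 9.58% of all tested genes were.

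Indole-3-acetic acid inducible 19 (Phvul.010G151732; chromosome 10, 43172710 to 43177565, plus strand) had 113.7, 51.7 and 91.5 FPKM in nts and 4.27, 11.9 and 8.33 FPKM in A18. The groups were far apart, and the mean was 85.6 ± 31.4 FPKM in nts and 8.17 ± 3.82 FPKM in A18 (SD, n = 3 each, as throughout). Its log2 change was 3.44 ± 0.53 (SE, edgeR adjusted p = 0.0644), and it stayed between 3.11 and 3.93 when any single library was left out. In Arabidopsis the gene of this name acts in the bending growth of stems. The second gene with this description, Phvul.005G172900, had 227.2, 85.9 and 264.0 FPKM in nts and 27.5, 110.7 and 60.3 FPKM in A18, and its groups overlapped through nts replicate 2 and A18 replicate 2 (log2 change 1.58 ± 0.66, edgeR adjusted p = 0.277).

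Indole-3-acetic acid 7 (Phvul.007G176600; chromosome 7, 29633028 to 29635474, minus strand), whose Arabidopsis namesake is a repressor in which stabilising mutations block auxin response, had 1024, 777.2 and 988.3 FPKM in nts and 154.6, 295.4 and 114.6 FPKM in A18. All nts libraries lay far above all A18 libraries, with a log2 change of 2.34 ± 0.46 (edgeR adjusted p = 0.084), which was 2.96 without A18 replicate 2. The most abundant of the group was indole-3-acetic acid inducible 14 (Phvul.001G156600), known in Arabidopsis from the control of lateral root formation, with 2018, 1737 and 2321 FPKM in nts and 370.9, 1117 and 372.6 FPKM in A18. Here too the groups did not overlap, but A18 replicate 2 lay well above the other A18 libraries. The log2 change was 1.73 ± 0.56 (edgeR adjusted p = 0.188), and it was 2.62 without A18 replicate 2. Without A18 replicate 1 or 3 it was 1.44 and no longer reached an unadjusted p of at most 0.05. A second gene of that name, Phvul.003G138330, reached 852.3, 786.5 and 1316 FPKM in nts and 528.2, 989.5 and 790.3 FPKM in A18, and these ranges overlapped (edgeR adjusted p = 0.623).

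On the lower side stood indole-3-acetic acid inducible 31 (Phvul.003G124600), a scarce member with 4.04, 3.48 and 2.79 FPKM in nts and 6.67, 13.9 and 11 FPKM in A18. Its log2 change was -1.56 ± 0.42 (edgeR adjusted p = 0.139). Indoleacetic acid-induced protein 8 was divided: Phvul.009G146000 had 101.0, 85.9 and 139.3 FPKM in nts and 243.4, 180.2 and 307.9 FPKM in A18 (log2 change -1.07 ± 0.29, edgeR adjusted p = 0.142), while Phvul.005G169600 and Phvul.003G286200 overlapped between the genotypes, with log2 changes of 0.28 and 0.24. Among scarce repressors, indole-3-acetic acid inducible 33 (Phvul.003G145600) ranged from 0 to 0.511 FPKM in nts and had 1.79, 0.108 and 8.38 FPKM in A18. Its log2 change of -3.88 ± 1.76 was the lowest of the group, but the genotypes overlapped (edgeR adjusted p = 0.315). That change rested mostly on A18 replicate 3, with 70, 3 and 286 counts in A18 replicates 1, 2 and 3. Indole-3-acetic acid inducible 32 (Phvul.007G032200) was counted in all 3 nts libraries, at 0.491, 0.109 and 2.21 FPKM, and had 0 counts in all 3 A18 libraries. Set against a floor of 3 counts per library its mean was at least 11.9-fold higher in nts, but it was too low to be tested. That bound covers counting error only and rests mostly on nts replicate 3, with 22, 5 and 77 counts in nts replicates 1, 2 and 3.

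**Figure D2:**
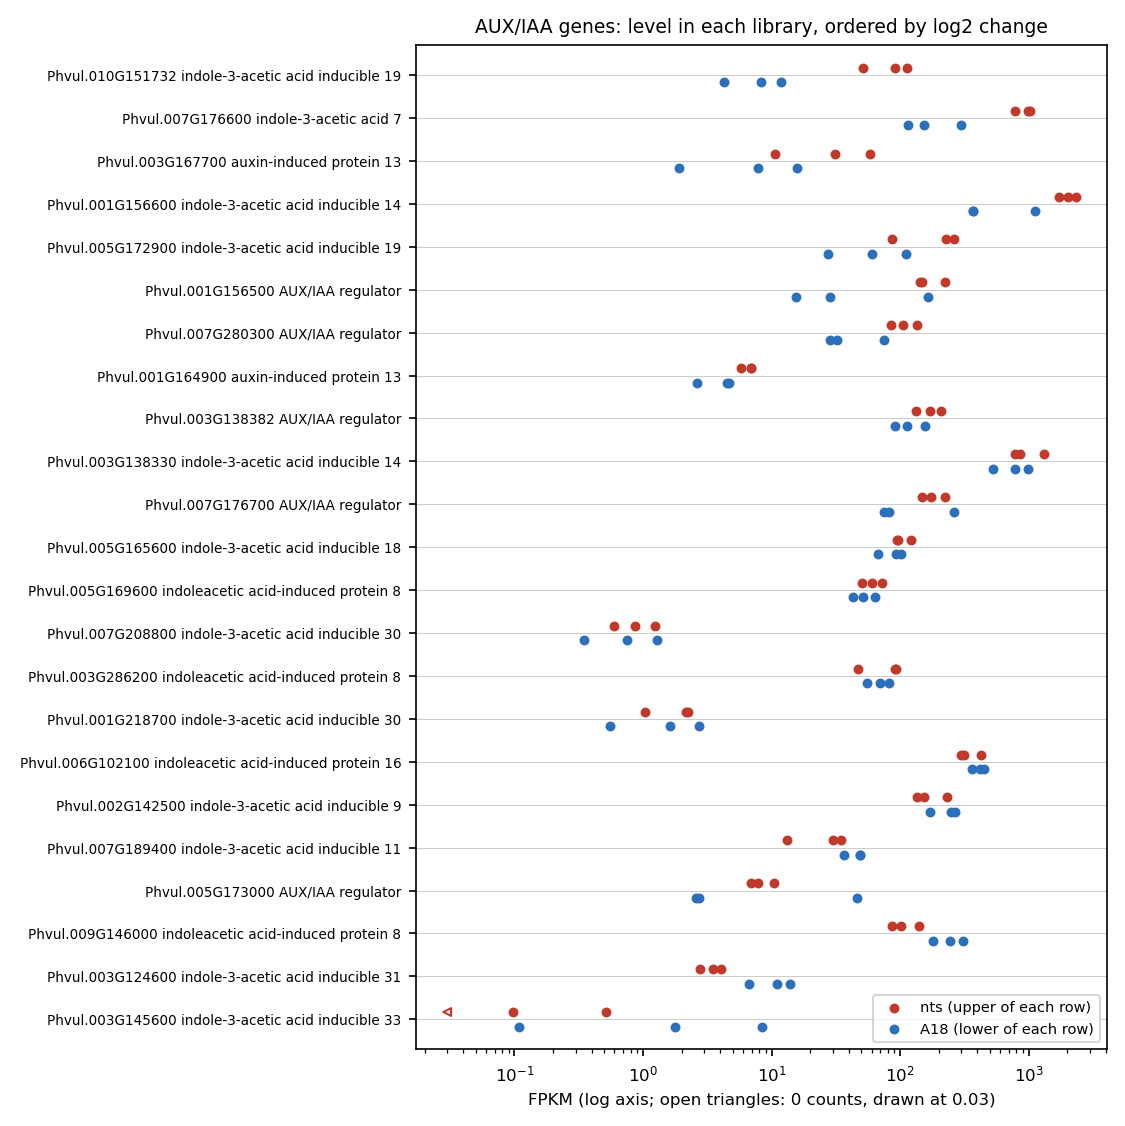
FPKM of the 23 tested AUX/IAA genes in every library on a log axis, nts (red) above A18 (blue) in each row, ordered by log2 change from high (top) to low; the open triangle is a library with 0 counts. The top row, at 51.7 to 113.7 FPKM in nts and 4.27 to 11.9 FPKM in A18, shows full separation, whereas most rows in the middle overlap.

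Several AUX/IAA genes lie next to each other in pairs, and the size of their log2 changes depended on A18 replicate 2. On chromosome 1, Phvul.001G156500 and the abundant Phvul.001G156600 lie 22.5 kb apart on opposite strands, with log2 changes of 1.29 and 1.73. The first had 225.2, 149.0 and 141.9 FPKM in nts and 15.6, 163.8 and 28.7 FPKM in A18, so that A18 replicate 2 alone lay within the nts range (edgeR adjusted p = 0.504). Without that library its log2 change was 3.12 (edgeR adjusted p = 0.0299) and that of its partner was 2.62, so both stayed above 0. On chromosome 7, Phvul.007G176600 and Phvul.007G176700 lie 25.8 kb apart, also on opposite strands, with log2 changes of 2.34 and 0.39. The second of these had 222.5, 173.5 and 148.9 FPKM in nts and 75.4, 264.4 and 81.5 FPKM in A18, with A18 replicate 2 above all nts libraries (edgeR adjusted p = 0.77). Without that library its log2 change was 1.38 (edgeR adjusted p = 0.045), on the same side as its partner's 2.96. On chromosome 5, Phvul.005G172900 and Phvul.005G173000 lie 6.2 kb apart on the same strand, with log2 changes of 1.58 and -1.05. The change of Phvul.005G173000 rested on A18 replicate 2: the gene had 6.93, 7.83 and 10.4 FPKM in nts and 2.74, 45.9 and 2.59 FPKM in A18 (edgeR adjusted p = 0.685). Without both A18 replicate 2 and nts replicate 3 it turned to 1.56 (edgeR adjusted p = 0.0428), the direction of its partner. No other setting called it at an adjusted p under 0.05. Both libraries lay between the genotypes on the first principal component, so leaving them out widens the contrast. The share of all tested genes called rose from 0.0947% to 4.38% without A18 replicate 2 and to 19.9% without both. The adjusted p-values after such removal are therefore no separate support for single genes. Reads shared by close relatives could be divided among them in a way that the sources used here do not state, and the same holds for the GH3 and carrier families.

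Auxin response factors, the DNA-binding proteins that the repressors hold, showed no common direction: 12 of 26 tested members were above 0 and 14 below, with a median log2 change of -0.03 and a range from -1.93 to 2.53. In 22 of the 26 the log2 change was smaller than 1 in size. At an unadjusted p of at most 0.05, 4 were higher and 4 lower, where 8.39% and 9.58% of all tested genes were. The study's thresholds were passed by 1, or 3.85% of those tested, where 5.43% of all tested genes passed in either direction. Their summed level was 1155, 1016 and 1047 FPKM in nts and 1255, 815.3 and 1201 FPKM in A18.

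The response factor past the thresholds was auxin response factor 16 (Phvul.007G095000; chromosome 7, 10049512 to 10052095, minus strand), whose Arabidopsis namesake is a repressor type. It had 41.2, 21.7 and 17.5 FPKM in nts and 2.94, 8.75 and 2.40 FPKM in A18, with no overlap, and a log2 change of 2.53 ± 0.66 (edgeR adjusted p = 0.132) that was 3.50 without A18 replicate 2. A second gene with the same description, Phvul.007G149000, was lower in nts, at 7.55, 6.23 and 8.41 FPKM against 13.8, 13.9 and 12.6 FPKM in A18 (log2 change -0.78 ± 0.21, edgeR adjusted p = 0.139). The third, Phvul.005G134500, had 15.7, 13.9 and 38.0 FPKM in nts and 42.4, 36.2 and 33.0 FPKM in A18, and these ranges overlapped (edgeR adjusted p = 0.485). Copies with the same name thus stood on opposite sides in these libraries.

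Auxin response factor 4 had the lowest p of all auxin genes. Phvul.005G136900 (chromosome 5, 37881585 to 37886875, plus strand), of a type that in Arabidopsis helps to set the lower face of leaves, had 17.2, 20.7 and 22.4 FPKM in nts and 73.8, 54.9 and 117.5 FPKM in A18. The nts libraries were close together and all below A18, with a log2 change of -1.93 ± 0.30 (edgeR adjusted p = 0.0644), just short of the size the study required, and of -1.62 to -2.08 without any single library. The other gene of this name, Phvul.011G073600, had 82.3, 45.7 and 83.6 FPKM in nts and 87.6, 75.6 and 122.7 FPKM in A18 (log2 change -0.34, edgeR adjusted p = 0.635).

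Auxin response factor 8, an activator that in Arabidopsis acts in stem elongation and flower maturation, had 4 genes. Of these 2 were higher in nts at an unadjusted p of at most 0.05, where 8.39% of all tested genes were. Phvul.008G242400 had 168.6, 151.4 and 119.8 FPKM in nts and 95.9, 60.5 and 97.7 FPKM in A18 (log2 change 0.88 ± 0.25, edgeR adjusted p = 0.153), and Phvul.006G084200 averaged 46.3 ± 14.4 FPKM in nts and 24.8 ± 3.88 FPKM in A18 (log2 change 0.98 ± 0.26, edgeR adjusted p = 0.139). Neither overlapped between the genotypes. The most abundant of the group, Phvul.002G177600, had 152.3, 116.4 and 179.4 FPKM in nts and 132.1, 67.8 and 136.9 FPKM in A18, which overlapped (edgeR adjusted p = 0.454). Auxin response factor 19 (Phvul.003G128800), an activator of lateral root genes in Arabidopsis, stood lower, with 20.7, 15.9 and 48.6 FPKM in nts and 104.6, 51.2 and 78.5 FPKM in A18 (log2 change -1.34 ± 0.49, edgeR adjusted p = 0.224). The remaining members with an unadjusted p of at most 0.05 were 2 B3-type response factors, Phvul.003G290200 at a log2 change of 0.84 and Phvul.001G008200 at -1.05.

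**Figure D3:**
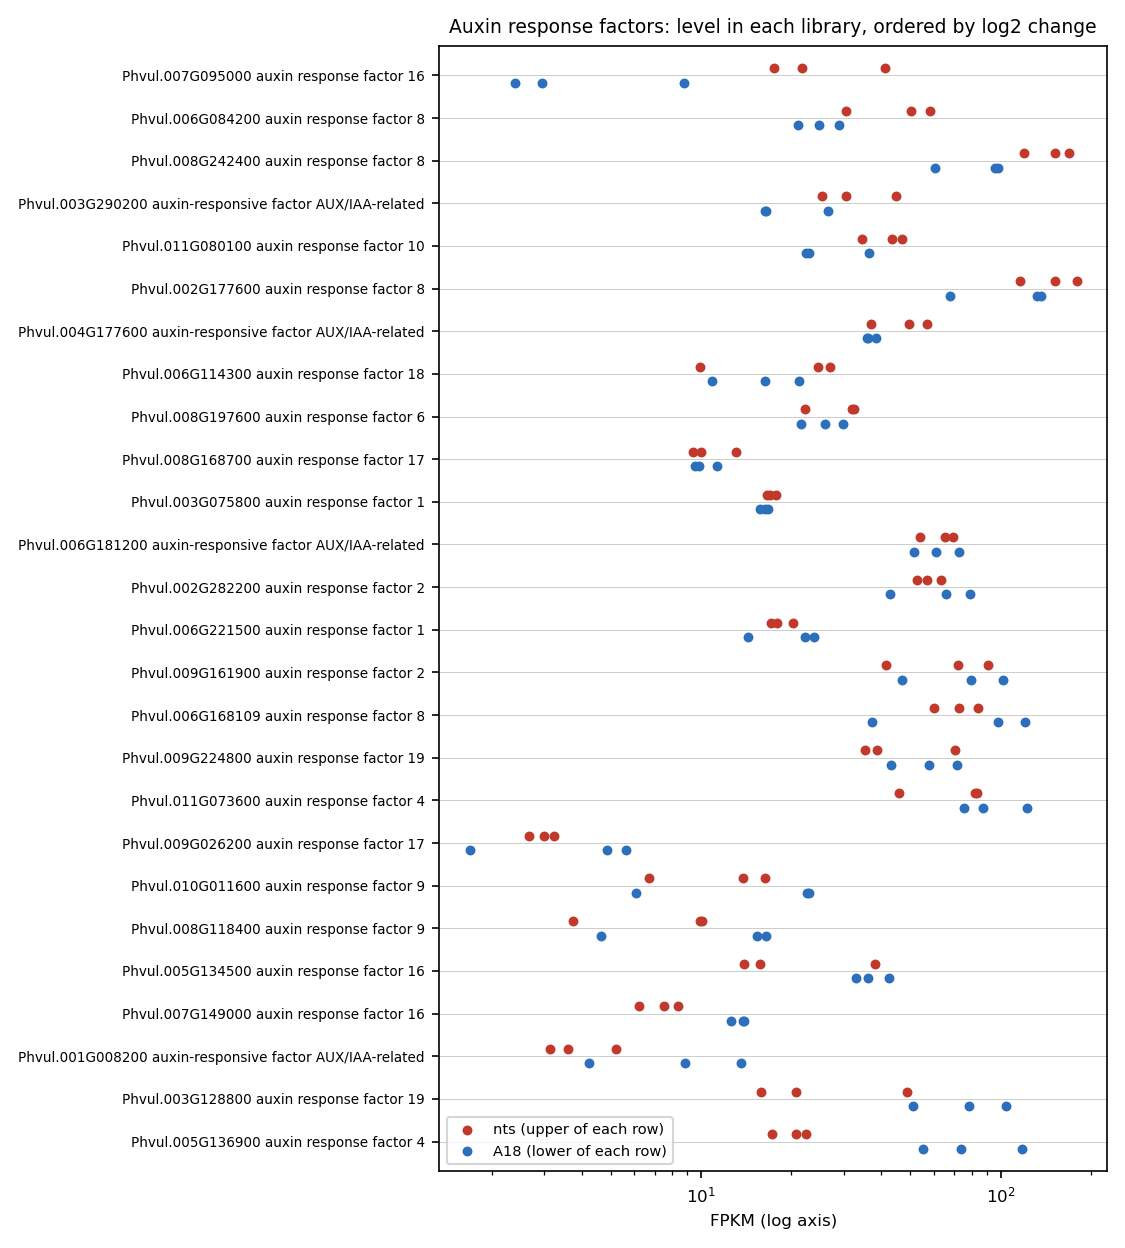
FPKM of the 26 tested auxin response factors in every library on a log axis, nts (red) above A18 (blue) in each row, ordered by log2 change. At the top Phvul.007G095000 and at the bottom Phvul.005G136900 separate fully, and the rows between them mostly overlap.

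The F-box receptors had no member past the study's thresholds. Auxin signaling F-box 2 (Phvul.001G087000) had 111.5, 94.8 and 106.9 FPKM in nts and 69.3, 83.5 and 82.2 FPKM in A18, all nts libraries being higher (log2 change 0.49 ± 0.22, edgeR adjusted p = 0.307). Auxin F-box protein 5 (Phvul.008G179000) had 48.5, 44.3 and 77.0 FPKM in nts and 69.4, 46 and 58.7 FPKM in A18, with overlapping ranges and a log2 change of 0.06 ± 0.28 whose sign turned under other scalings (-0.01 with library size alone). Of 3 further F-box genes that carry the receptors' orthology number under a general description, all had log2 changes above 0. Among these, Phvul.007G166200 had 75.2, 69.6 and 98 FPKM in nts and 51.9, 45.8 and 44.7 FPKM in A18 (log2 change 0.85, edgeR adjusted p = 0.129), and Phvul.001G202600 had a log2 change of 0.57 (edgeR adjusted p = 0.15).

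GH3 enzymes, which conjugate auxin, were divided between a few genes that were higher in nts and abundant genes whose ranges overlapped. Of 10 tested, 8 had log2 changes above 0, with a median of 0.75. The study's thresholds were passed by 2, both higher in nts, where 2.06% of all tested genes were higher and 3.37% lower. The first, Phvul.011G108500 (chromosome 11, 13693218 to 13697638, plus strand), had 81.8, 37.2 and 49.8 FPKM in nts and 13.9, 17.1 and 7.58 FPKM in A18. The second, Phvul.011G113000 (chromosome 11, 14964717 to 14968429, plus strand), had 25.6, 21.9 and 8.88 FPKM in nts and 3.93, 4.78 and 5.94 FPKM in A18. Neither overlapped between genotypes, with log2 changes of 2.19 ± 0.45 (edgeR adjusted p = 0.0894) and 2.01 ± 0.42 (edgeR adjusted p = 0.0906). Both sat near the required size: the first was at 1.9 without A18 replicate 3 and 1.83 without nts replicate 1, and the second at 1.85 without A18 replicate 1, 1.74 without nts replicate 1 and 1.93 without nts replicate 2, each then short of the thresholds. With all libraries kept, the second also fell short under other scalings, a replicate block, DESeq2 and limma. It passed in 7 of the 15 alternative settings, and the first in 13.

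The most abundant GH3 genes were the pair with the jasmonate enzyme's orthology number. Phvul.010G111400 had 120.2, 116.3 and 188.9 FPKM in nts and 91.8, 147.1 and 125.5 FPKM in A18 (edgeR adjusted p = 0.704), and Phvul.006G110900 had 59.1, 67.1 and 85.5 FPKM in nts and 111.3, 80.6 and 106.7 FPKM in A18 (edgeR adjusted p = 0.401). Both overlapped. A scarce member, Phvul.005G106500, was higher in each nts library, at 1.17, 1.11 and 0.472 FPKM, against 0.148, 0.222 and 0 FPKM in A18 (log2 change 2.92 ± 1.28, edgeR adjusted p = 0.302). In Phvul.002G083100 the A18 libraries lay far apart: it had 35.4, 7.22 and 23.2 FPKM in nts, and in A18 21.3 FPKM in replicate 2 against 0.484 and 0.640 FPKM in replicates 1 and 3 (log2 change 1.52, edgeR adjusted p = 0.645). Without A18 replicate 2 its log2 change was 5.45 (edgeR adjusted p = 0.0396), in a setting that called 4.38% of all tested genes.

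Auxin synthesis had 4 genes by description, and 3 of them were higher in every nts library than in any A18 library. Among all tested genes 10.0% were, and no synthesis gene passed an adjusted p of 0.05 in edgeR (lowest 0.116). Tryptophan aminotransferase of Arabidopsis 1 (Phvul.002G059200), the first enzyme of the route and the most abundant here, had 33.0, 22.9 and 12.4 FPKM in nts and 1.92, 6.70 and 9.50 FPKM in A18. Its log2 change was 1.97 ± 0.64 (edgeR adjusted p = 0.188), just short of the study's size threshold, and without nts replicate 1 it was 1.62 and no longer reached an unadjusted p of at most 0.05. A tryptophan aminotransferase related 2 gene (Phvul.009G175300; chromosome 9, 26042661 to 26049153, minus strand) passed the thresholds. It had 4.93, 4.18 and 1.78 FPKM in nts and 0.428, 1.09 and 0.554 FPKM in A18, with a log2 change of 2.41 ± 0.61 (edgeR adjusted p = 0.128) that was 3.03 without A18 replicate 2. Its second copy, Phvul.003G203500, had 2.29, 3.44 and 4.79 FPKM in nts and 0.650, 7.84 and 0.740 FPKM in A18, so that A18 replicate 2 was the highest of all libraries, and the log2 change of 0.17 was 2.51 without that library and -0.33 without A18 replicate 1.

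YUCCA 3 (Phvul.007G238900; chromosome 7, 36272890 to 36275062, minus strand), an enzyme of the second step, was counted in nts only. It had 57, 84 and 9 counts in nts replicates 1, 2 and 3, or 0.625, 0.960 and 0.122 FPKM, and 0 counts in the 3 A18 libraries. Against a floor of 3 counts per library it was at least 14.4-fold higher in nts (edgeR adjusted p = 0.116), a bound that covers counting error only. These are low levels, so that nts replicate 3 rests on few counts.

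Flavin-binding monooxygenases, the family to which YUCCA enzymes belong, were listed separately because their description does not name auxin. All but Phvul.002G061500 carried K11816, the orthology number of YUCCA 3. The synthesis group above therefore holds only part of the genes with that number. Of the 17 monooxygenases 10 were tested, 6 above 0 and 4 below, with a median log2 change of 0.09. The study's thresholds were passed by 3, of which 2 were higher and 1 lower, where 2.06% and 3.37% of all tested genes were. The higher ones were Phvul.007G155200, with 2.33, 1.54 and 2.46 FPKM in nts and 0, 0.154 and 0.0888 FPKM in A18 (edgeR adjusted p = 0.129), and its neighbour in the numbering Phvul.007G155100, with 2.23, 0.824 and 3.76 FPKM in nts and 0.409, 0.286 and 0.0984 FPKM in A18 (edgeR adjusted p = 0.132). The lower one, Phvul.009G096500, ranged from 0.118 to 0.252 FPKM in nts and from 0.252 to 1.54 FPKM in A18 (edgeR adjusted p = 0.211). A further gene, Phvul.002G061500, averaged 14.5 FPKM in nts and 24.3 FPKM in A18 (edgeR adjusted p = 0.166). The more abundant genes with K11816 overlapped between the genotypes. Phvul.005G030400, Phvul.009G190698 and Phvul.001G202100 had log2 changes of 0.17, 1.01 and -0.31 (edgeR adjusted p = 0.713, 0.613 and 0.717).

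Transport genes as a group did not lean to either side, with 10 of 19 tested members above 0 and a median log2 change of 0.04. The 26 auxin efflux carrier family genes fall into 16 whose GO terms name auxin efflux and 10 whose terms name an auxin:proton symporter. In the efflux class 5 genes, and in the symporter class 4, had 0 counts in all libraries. Of the 10 tested efflux genes 1 was higher at the study's thresholds, and of the 6 tested symporter genes 1 was lower. Among all tested genes 2.06% were higher and 3.37% lower, and 1 gene of so few says little about a class.

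The efflux carrier Phvul.003G032500 (chromosome 3, 3328245 to 3333114, minus strand) had 71.3, 39.3 and 77.3 FPKM in nts and 17.5, 20.5 and 10.2 FPKM in A18, without overlap. Its log2 change was 2.03 ± 0.41 (edgeR adjusted p = 0.0867), and it was short of the thresholds at 1.77 without A18 replicate 3, 1.94 without nts replicate 1 and 1.83 without nts replicate 3. It also fell short with library size alone and with limma, and passed in 10 of the 15 alternative settings. The most abundant efflux gene, Phvul.004G150600, pointed the other way, with 64.6, 64.7 and 147.3 FPKM in nts and 291.6, 115.5 and 154.9 FPKM in A18. Its ranges overlapped through nts replicate 3 and A18 replicate 2 (log2 change -0.91 ± 0.48, edgeR adjusted p = 0.376). Phvul.008G043700, a scarcer efflux gene, was higher in nts at 2.89, 4.49 and 4.55 FPKM, against 0.725, 1.61 and 2.15 FPKM in A18 (log2 change 1.47 ± 0.51, edgeR adjusted p = 0.204).

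In the symporter class Phvul.002G117700 (chromosome 2, 25086517 to 25089496, minus strand) was nearly absent from nts, with 0.144, 0.125 and 1.27 FPKM, against 22, 6.73 and 10.8 FPKM in A18. The log2 change of -4.54 ± 1.07 (edgeR adjusted p = 0.111) was the lowest among the auxin genes tested, and it was -6.45 without nts replicate 3. Phvul.008G078601 had 15.2, 13.3 and 16.9 FPKM in nts and 34.7, 17.9 and 35.8 FPKM in A18, also without overlap (log2 change -0.86 ± 0.27, edgeR adjusted p = 0.176). The most abundant of the class, Phvul.002G119300, had 101.1, 111.6 and 103.7 FPKM in nts and 94.8, 79.7 and 153.9 FPKM in A18, which overlapped (edgeR adjusted p = 0.962). The influx carriers like AUXIN RESISTANT 2 (Phvul.011G034000 and Phvul.009G120700) had log2 changes of 0.49 and -0.65, and BIG (Phvul.008G025700), a large protein needed for polar auxin transport in Arabidopsis, had 10.5, 10.3 and 11.1 FPKM in nts and 13.1, 12.7 and 12.4 FPKM in A18 (edgeR adjusted p = 0.667).

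**Figure D4:**
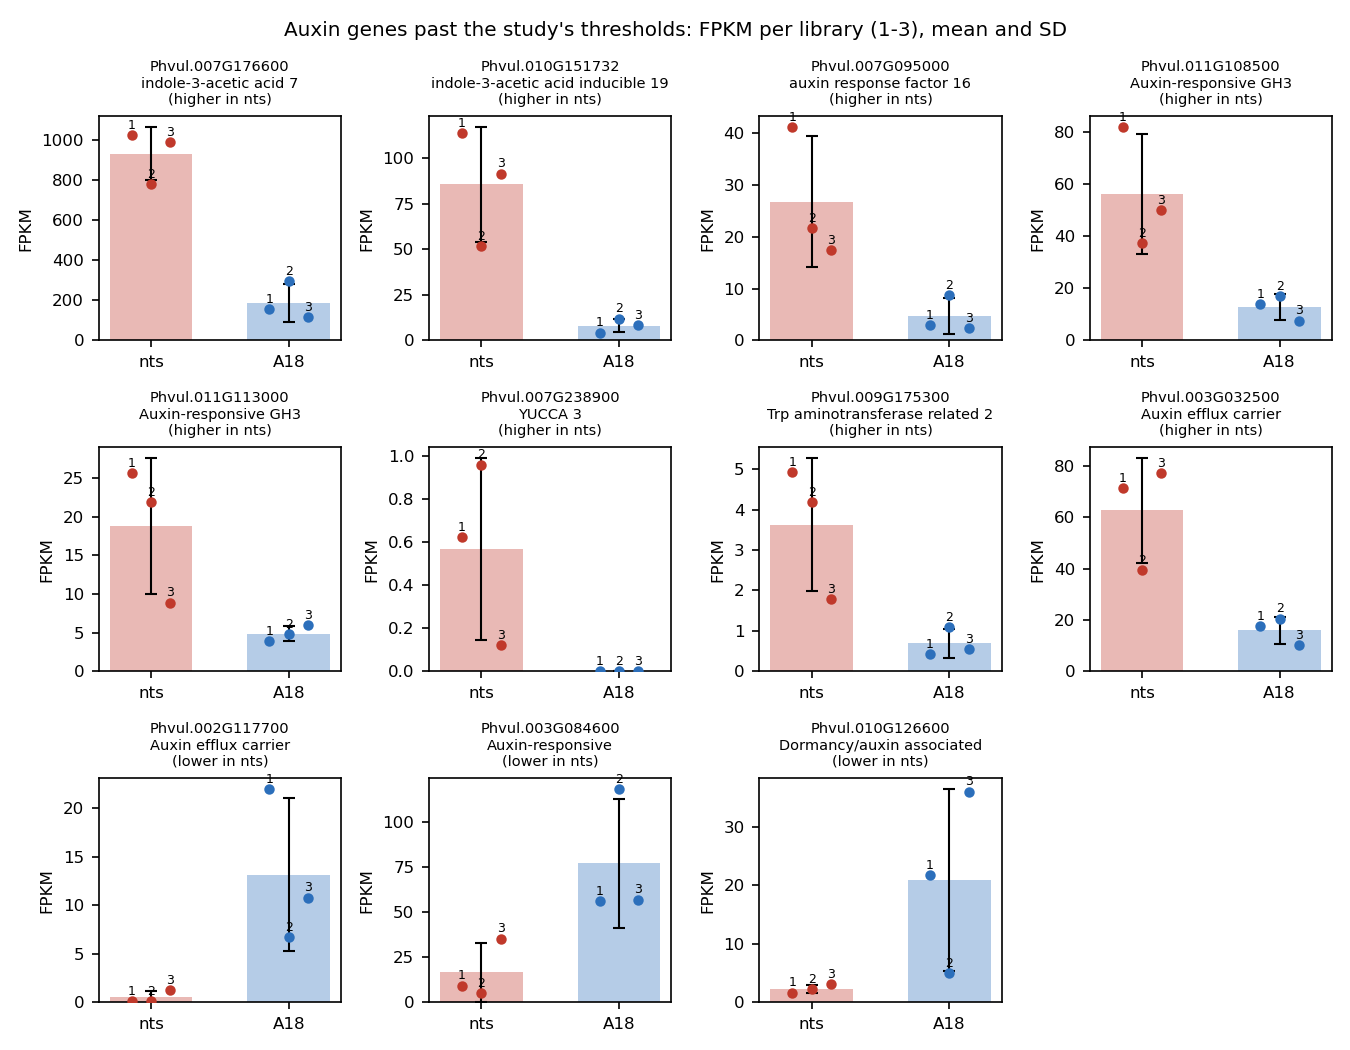
FPKM of the 11 auxin genes past the study's thresholds, nts left of A18 in each panel; points are libraries with their replicate numbers, bars are means and whiskers SD (n = 3). In each panel the libraries of the genotypes do not overlap. In most panels A18 replicate 2 is the A18 library nearest to nts, as for Phvul.007G176600 (295.4 FPKM) and Phvul.010G126600 (5 FPKM). The exceptions are Phvul.011G113000, Phvul.003G084600 and Phvul.007G238900, the last with 0 counts in every A18 library.

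The other genes carry the word auxin without a place in synthesis, transport or signalling by description. Dormancy/auxin associated proteins, known from dormant buds and non-growing tissue of other plants, were all lower in nts. Phvul.010G126600 (chromosome 10, 40744381 to 40744998, minus strand) had 1.68, 2.21 and 3.07 FPKM in nts and 21.8, 5 and 36 FPKM in A18, and passed the study's thresholds with a log2 change of -3.03 ± 0.71 (edgeR adjusted p = 0.111), which was -2.39 without A18 replicate 3. Phvul.006G089000, the most abundant of all auxin genes on the mean of the 6 libraries, had 1020, 1101 and 1151 FPKM in nts and 1564, 1827 and 3171 FPKM in A18 (log2 change -0.92 ± 0.33, edgeR adjusted p = 0.215). Phvul.007G197700 had 248.0, 196.2 and 375.8 FPKM in nts and 743.1, 473.1 and 1245 FPKM in A18 (log2 change -1.48 ± 0.42, edgeR adjusted p = 0.149). No nts library of these 3 genes reached the lowest A18 library, a position that 14.3% of all tested genes held.

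All 11 genes described as Auxin-responsive family protein carry GO terms for metal ion binding and oxidation-reduction. Of these 5 had 0 counts in all libraries. Phvul.003G084600 (chromosome 3, 14625052 to 14626815, minus strand) passed the thresholds, with 9.32, 5.23 and 35.4 FPKM in nts and 56.1, 118.3 and 57.0 FPKM in A18 (log2 change -2.15 ± 0.79, edgeR adjusted p = 0.229). It was short of them at -1.58 without A18 replicate 2, -1.85 without nts replicate 1 and -1.71 without nts replicate 2, while without nts replicate 3 it was -3.38. Phvul.006G142300 had 35, 25.6 and 22.8 FPKM in nts and 65.2, 180.9 and 77.9 FPKM in A18, without overlap (log2 change -1.93 ± 0.49, edgeR adjusted p = 0.127), whereas its neighbour Phvul.006G142200, 9.22 kb away on the same strand, was scarce and overlapped (log2 change 1.07, edgeR adjusted p = 0.543). The similarly described Phvul.010G030500 was higher in nts, at 372.8, 220.1 and 195.0 FPKM, against 138.8, 124.1 and 89.4 FPKM in A18 (log2 change 1.23 ± 0.33, edgeR adjusted p = 0.142). The endoplasmic reticulum auxin binding protein 1 (Phvul.007G168600) and both SUPPRESSOR OF AUXIN RESISTANCE genes (Phvul.007G218900 and Phvul.008G287100), which in Arabidopsis encode nuclear pore proteins, overlapped between the genotypes, with log2 changes of 0.33, 0.03 and 0.24.

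Auxin genes outside the description words were read from further lists. ABCB transporters, some of which carry auxin, had 20 tested members with a median log2 change of -0.41, and 1 in each direction passed the study's thresholds. P-glycoprotein 11 (Phvul.003G122400) had 5.08, 4.22 and 2.77 FPKM in nts and 0.531, 1.35 and 0.600 FPKM in A18, and P-glycoprotein 18 (Phvul.004G023132) had 1.3, 2.46 and 5.32 FPKM in nts and 22.5, 6.76 and 12 FPKM in A18. TOPLESS-type co-repressors, which AUX/IAA proteins recruit, had 3 tested members. Phvul.001G049800 (TOPLESS-related 1) had 0 counts in nts against 30, 34 and 39 counts in A18, at least 12.4-fold lower against the floor, while the abundant Phvul.007G198900 and Phvul.001G227000 had log2 changes of -0.21 and -0.10. Kinases and partners of carrier polarity had 8 tested members, none past the study's thresholds, with Phvul.011G149700, a pinoid-binding protein 1, at 15.3 FPKM in nts and 38.2 FPKM in A18 on average (log2 change -1.25, edgeR adjusted p = 0.103). Tryptophan synthesis (10 tested, median 0.16) and IAA-amino acid hydrolases (2 tested) had none past the thresholds, and nitrilases and aldehyde oxidases (6 tested, median -0.26) had 1 lower, an abscisic aldehyde oxidase 3. The SAUR genes, for comparison, had 26 higher and 4 lower of 66 tested at the study's thresholds. Among all tested genes 2.06% were higher and 3.37% lower by the same rule. The lowest edgeR adjusted p of a SAUR gene was 0.0564.

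Genes that share a KEGG orthology number with these groups under another description were also read, a choice made after the table was seen. The number alone does not place them in a group. Both genes with the response factor number are described as AP2/B3 transcription factors. A Rubisco methyltransferase family protein (Phvul.006G005700) carries the AUX/IAA number, and amino acid permease 7 (Phvul.008G283000) the influx carrier number. Of 2 further genes with the response factor number, Phvul.007G102800 (an AP2/B3 protein) had 55.6, 36.6 and 160.9 FPKM in nts and 8.40, 10.7 and 6.94 FPKM in A18, past the study's thresholds with a log2 change of 3.36 (edgeR adjusted p = 0.0781), and Phvul.003G111800 had a log2 change of 1.09 (edgeR adjusted p = 0.398). Among 5 tested genes with the AUX/IAA number none passed, and phytochrome-associated protein 2 genes stood on both sides. Phvul.004G166400 had 7.59, 13.0 and 9.66 FPKM in nts and 40.0, 23.5 and 61.3 FPKM in A18 (log2 change -1.94, edgeR adjusted p = 0.0777), and Phvul.010G147200 had 17.7, 11.8 and 5.58 FPKM in nts and 3.67, 2.10 and 4.47 FPKM in A18 (log2 change 1.87, edgeR adjusted p = 0.131). The influx carrier number held 10 tested genes, 1 of them lower at the thresholds (Phvul.001G241500, 0.380 FPKM in nts and 2.69 FPKM in A18 on average) and Phvul.008G106300 with a log2 change of 0.96 (edgeR adjusted p = 0.242). Among all tested genes 2.06% were higher and 3.37% lower at those thresholds.

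How many auxin genes were called depended on the test and on the treatment of nts replicate 3 and A18 replicate 2. At an adjusted p under 0.05 the count of 0 became 24 of the auxin genes in DESeq2, 39 with library quality weights, 11 without A18 replicate 2, 8 without nts replicate 3 and 32 without both. Over all tested genes the same settings called 10.2%, 24.4%, 4.38%, 4.45% and 19.9%. At the study's thresholds 19 auxin genes were higher without A18 replicate 2, where 4.29% of all tested genes were, and 5 without nts replicate 1, where 1.71% were. Indole-3-acetic acid inducible 19 (Phvul.010G151732), indole-3-acetic acid 7 (Phvul.007G176600), auxin response factor 16 (Phvul.007G095000), the symporter-class carrier Phvul.002G117700 and the dormancy-associated Phvul.010G126600 remained past the study's thresholds in all 15 alternatives.

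**Figure D5:**
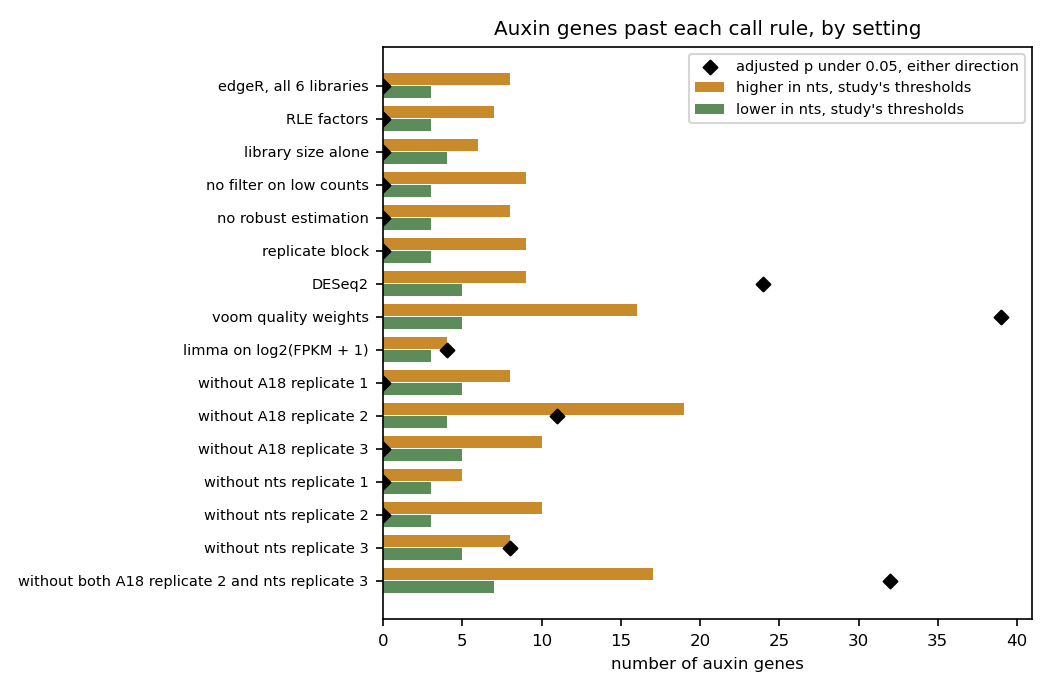
Number of auxin genes past each call rule under every setting: bars for genes higher (orange) and lower (green) in nts at the study's thresholds, diamonds for an adjusted p under 0.05 in either direction. The diamonds stand at 0 with all 6 libraries in edgeR and at 32 without both A18 replicate 2 and nts replicate 3.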

How the data were processed

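The deposited table holds raw counts per gene and FPKM values for each sample, and per the file headers the authors produced both FPKM and counts. Per the submitters' processing notes, the tools included cutadapt 1.9 and FastQC. For the aligner, counter, strand setting, build and annotation the entry is: not given in the sources used here. Thus coordinates are those of the table. FPKM at the authors' floor of 0.0001 for 0 counts was set to 0. Total counts ran from 40728394 to 62695701.

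Counts were tested with edgeR 4.0.16 (quasi-likelihood F test, robust, TMM factors, default expression filter) in R 4.3.3, nts minus A18 with genotype as the only term, and Benjamini-Hochberg adjustment over 21126 tested genes. Each standard error was derived from the change and its F statistic, so it restates the test. Members and lists were chosen with earlier results of these data known. Named genes were those past a call rule and, per group, the 3 of lowest p and the 2 most abundant, with up to 3 of lowest p from each list of other auxin genes; others were named after their values were seen. Indole-3-acetic acid 7, outside the description words set for AUX/IAA genes, was added to them by name. Alternatives were DESeq2 1.42.0, other scalings and filters, limma 3.58.1 on log2(FPKM + 1) and voom with quality weights, a replicate block and left-out libraries. The procedure was run on simulated counts with known fold changes, and the outcome is not reported here. Those counts lacked the shift of nts replicate 3 and A18 replicate 2, so they cannot show how the test performs with these libraries. Libraries of a genotype differed beyond sampling noise (chi-square per gene 132 to 435), so none was treated as a duplicate.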

Additional observations from a re-analysis of the deposited data

How the results depend on the processing

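The counts of auxin genes moved with the test and with the libraries left out; the cause was not tested. At an adjusted p under 0.05 the count of 0 became 24 with DESeq2, 39 with voom quality weights, 4 with limma on log2(FPKM + 1) and 32 without both A18 replicate 2 and nts replicate 3, and ranged from 0 to 11 when 1 library was left out. Of genes higher at the study's thresholds, 8 became 16 with quality weights, 4 with limma on log2(FPKM + 1), which understates low genes, and 17 without both libraries, and ranged from 5 to 19 when 1 was left out. Of genes lower, 3 became 5 with DESeq2 and with quality weights and 7 without both, and ranged from 3 to 5. Other scaling factors, no filter on low counts and no robust estimation kept all 3 counts within 1.5 times.

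With a replicate block the counts were 9 higher, 3 lower and 0 at an adjusted p under 0.05, and over all tested genes 0 were called rather than 20. The labels do not say whether equal replicate numbers pair the samples. Deviations of same-numbered samples correlated at -0.0163, -0.13 and 0.0385, and those of different-numbered samples at -0.148 to 0.111. With 3 samples per genotype these values cannot settle the question.

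Over 32 named genes and 15 alternatives, 433 values kept their direction and their side of the unadjusted 0.05 level, 20 came to pass it, 14 no longer did and 13 changed sign, all in 3 genes with changes near 0. Auxin F-box protein 5 (Phvul.008G179000) was at -0.01 with library size alone, -0.17 with quality weights, -0.06 with limma on log2(FPKM + 1), -0.25 without nts replicate 3 and -0.36 without both, with single libraries left out giving -0.25 to 0.24. The carrier Phvul.002G119300 was at -0.04 with library size alone, -0.11 with quality weights, -0.08 and -0.07 without A18 replicates 1 and 2 and -0.13 without both, and single libraries left out gave -0.08 to 0.33. Phvul.003G203500 ranged from -0.33 (without A18 replicate 1) to 2.51 (without A18 replicate 2), at -0.31 without A18 replicate 3 and -0.15 without nts replicate 3. Group medians ranged from 0.23 to 0.65 for AUX/IAA, 0.25 to 1.5 for GH3 and 1.01 to 2.85 for synthesis genes, and crossed 0 for response factors (-0.15 to 0.09) and transport genes (-0.05 to 0.19). Depth limits YUCCA 3 and the other genes with 0 counts in a genotype, whose folds are bounds.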
